A study of Mus musculus with 22 samples.

Results

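The genes described here encode the receptors through which cells respond to glutamate and GABA. They were taken from the table of gene counts as the protein-coding genes whose symbols name an AMPA (Gria), kainate (Grik), NMDA (Grin), delta (Grid) or metabotropic (Grm) glutamate receptor, or a GABA-A or rho (Gabr) or GABA-B (Gabbr) receptor itself. This rule found 45 of the 29367 genes in the table. The libraries hold mRNA pulled down with HA-tagged ribosomes from the optic nerve head (ONH) and the optic nerve proper (ONP), the stretch of nerve next to it, of mice whose eye had received microbeads to raise the intraocular pressure. All mice were of the cross of B6J.129(Cg)-Rpl22tm1.1Psam/SjJ, which carries the tag on the ribosomal protein Rpl22, with a mouse line that carries GFAP-Cre, are labelled WT, and were 3 to 4 months old. The tag was therefore placed by Cre under the GFAP promoter, and every group carried it. There were 7 libraries per region at 30 days and 4 per region at 7 days after the injection, 22 in all, and each was made from a pool of 4 mice (2 males, 2 females). Each mouse gave an ONH and an ONP, but replicate numbers are not stated to tie the libraries of the regions to the same mice. No uninjured mice were analysed here, so a difference between regions or days is not a difference from the uninjured nerve.

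Glutamate and GABA are the main excitatory and inhibitory transmitters of the brain. AMPA, kainate and NMDA receptors are cation channels opened by glutamate, GABA-A receptors are chloride channels opened by GABA, and the Grm and Gabbr products act through G proteins. Astrocytes carry several of these receptors and answer transmitter released nearby with changes in calcium and membrane potential. The optic nerve holds axons and glia and few synapses, and GluA1, the product of Gria1, and mGluR3, the product of Grm3, are among the receptors known from astrocytes.

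The libraries held 16292489 to 33307092 counts. Levels are given as CPM, the count relative to the library's TMM-scaled size, and genes are compared with each other only as CPM per kilobase of exon. An amount of 3 counts equalled 0.0897 to 0.191 CPM and was taken as the limit of detection, which covers counting error only. All 10 astrocyte markers were above this limit in every library, and their summed level was 15245 to 33733 CPM. At 30 days 1 of the 10 was called higher and 3 lower in the ONH. Markers of other cells were present as well. The 8 oligodendrocyte markers summed to 13323 to 40751 CPM in the ONH and to 25300.5 to 105867 CPM in the ONP. The 8 markers of oligodendrocyte precursors summed to 123 to 230.4 CPM in the ONH and to 495 to 682 CPM in the ONP, without overlap. Photoreceptor markers reached 2334 CPM in ONH replicate 4 at 30 days and 5751 CPM in an ONH library at 7 days, and stayed at or below 129 CPM in the ONP.

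Of the 45 receptor genes, 17 were above 3 counts in every library, 27 in some libraries, and Gabre, a GABA-A subunit gene, in none. The 10 genes above 3 counts in fewer than 6 libraries included Gabre, Gabrq, Gabrr1, Gabrr3, Grin2a, Grin2b, Grin3b, Grm2 and Grm6. Grin2a and Grin2b, which encode the main glutamate-binding NMDA subunits of forebrain neurons, were listed at 0 in 16 and 13 of the 22 libraries. Grm6, the receptor of retinal ON bipolar cells, was listed at 0 in 16.

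Gria1 was the most abundant receptor mRNA per length in both regions. Its mean was 105 ± 30.4 CPM per kb in the ONH and 39.7 ± 12.4 in the ONP (SD, n = 11 each), which placed it at percentile 98.4 and 95.5 of all genes. In the ONH it was followed by Gabrg3 (11.8 ± 2.77), a GABA-A gamma subunit gene, and Grm3 (5.34 ± 2.16). The ranges of mean ± SD of these 3 did not overlap, though single libraries of Gabrg3 and Grm3 did. In the ONP the second was Grm3 (27.2 ± 6.84), whose range of mean ± SD overlapped that of Gria1, and the third was Gria4 (3.44 ± 0.65). The genes at ranks 4 to 10 lay close together, each apart from the next by less than the larger of their SDs. They included Grik4, Grik5, Gabbr1, Gabrb1, Gria4 and Grik1 in the ONH, from 1.85 down to 0.951 CPM per kb. In the ONP they were Grik4, Gabrb1, Gabbr1, Gabrg3, Gabrr2, Grik5 and Grik1, from 3.15 down to 1.84 CPM per kb.

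The question put to the regions was whether astrocytes of the unmyelinated ONH and of the ONP carry different receptor mRNAs under raised pressure. At 30 days 29 receptor genes passed the filter on low counts and 16 of them (55.2%) had an adjusted p-value under 0.05, against 41.8% of all 15133 genes tested. Only 2 of the 16, Gria1 and Gabrg3, were higher in the ONH, and 14 were lower. The direction set the receptors apart more than the number did, as 20% of all genes were called lower and 21.8% higher. Of the 14, Gabrg1 passed the filter only through the ONP, as 0 of the 7 ONH libraries reached its level of 0.459 CPM. A difference was thus built in for Gabrg1, which is counted in the 14 and in the numbers that follow for 30 days. Grid1 reached that level in 4 of the ONH libraries and Gabra3 in 6, and both did in all 7 ONP libraries. The log2 fold change (log2FC, ONH over ONP) was below 0 for 25 of the 29, against 50.3% of all genes, and its median was -1.18 for the receptor genes and -0.01 for all genes tested. The groups did not overlap for 2 genes higher in the ONH and 9 lower, against 9.26% and 7.09% of all genes. At 7 days 25 passed the filter and 6 (24%) were called, against 13.2% of all genes. The 2 called higher were again Gria1 and Gabrg3, against 6.34% of all genes called higher, and the 4 called lower included Grm3, Gria4 and Gria3, against 6.81%. The groups did not overlap for 2 genes higher and 9 lower at 7 days, against 9.89% and 11.8% of all genes. In bulk samples, fewer cells of a type and less RNA per cell cannot be told apart, which holds for every difference below.

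**Figure D1:**
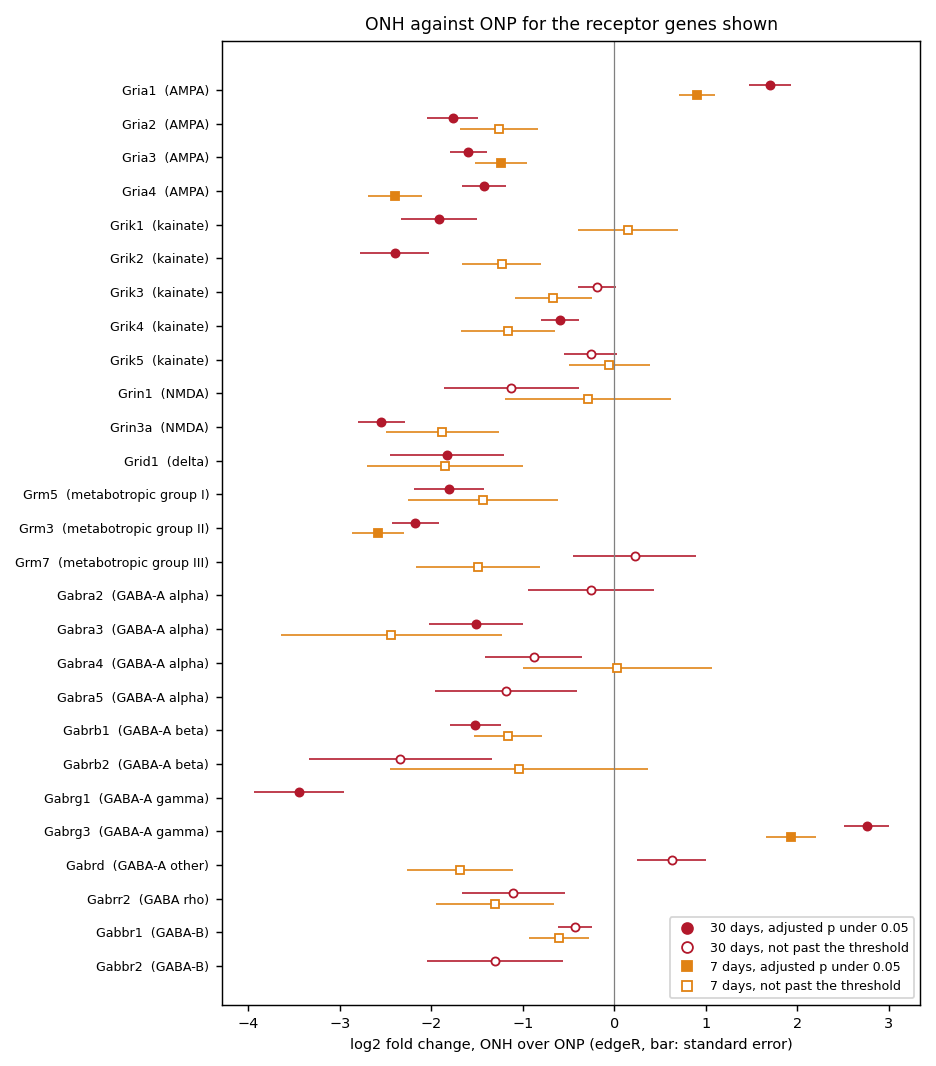
The log2 fold change of ONH over ONP (x axis, edgeR) is plotted for the receptor genes reported here that were tested at 30 days (circles) or 7 days (squares), with its standard error as a bar, and filled symbols have an adjusted p under 0.05. Gria1 and Gabrg3 lie to the right of 0 with filled symbols at both days, and all other filled symbols lie to the left.

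The AMPA receptor genes split by subunit. These channels are built of GluA1 to GluA4, and the 4 genes share the coding stretch that lines the pore. It is shown here because 1 codon of it, in capitals, is changed in Gria2 mRNA by RNA editing from glutamine to arginine, which sets whether the channel passes calcium. The stretches were read from GENCODE M21 transcripts on GRCm38, and the codons lie at chr11:57243094-57243096 (plus strand, exon 11 of 16) for Gria1, chr3:80706911-80706913 (minus strand, exon 11 of 16) for Gria2, chrX:41610265-41610267 (plus strand, exon 11 of 16) for Gria3 and chr9:4464137-4464139 (minus strand, exon 12 of 17) for Gria4.
Gria1: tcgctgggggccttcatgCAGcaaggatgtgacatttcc
Gria2: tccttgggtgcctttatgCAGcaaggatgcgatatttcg
Gria3: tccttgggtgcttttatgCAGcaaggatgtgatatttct
Gria4: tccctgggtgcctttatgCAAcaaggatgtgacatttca
Over these 39 bases Gria1, Gria3 and Gria4 differ from Gria2 at 7, 3 and 5 positions. Gene counts do not tell edited from unedited transcripts, so editing was not measured.

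Gria1 (chr11:57011387-57330244, plus strand) was at 456 to 983 CPM in the ONH at 30 days (median 629) and at 122 to 287 CPM in the ONP (median 215). At 7 days the 4 ONH libraries held 576, 664, 453 and 455 CPM, and the ONP libraries 381, 289, 254 and 243 CPM. Every ONH library was above every ONP library at both days. The log2FC was 1.70 ± 0.23 (SE, adjusted p = 4.32e-05) at 30 days and 0.90 ± 0.20 (adjusted p = 0.0136) at 7 days, and the call at 7 days was lost without any 1 of 3 ONP libraries (adjusted p up to 0.0568).

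The other 3 subunit genes went the opposite way. Gria2 was at 1.99 to 8.31 CPM in the ONH (median 4.62) and at 13.2 to 19.6 CPM in the ONP (median 17.3) at 30 days, without overlap, for a log2FC of -1.77 ± 0.28 (adjusted p = 0.000161). At 7 days the ONH held 9.10, 2.54, 6.44 and 3.87 CPM and the ONP 11.5, 17.3, 15.3 and 8.99 CPM. The 7 day groups overlapped by 1 library each, and the log2FC of -1.26 ± 0.42 was not called (adjusted p = 0.0787).

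Gria3 had a median of 3.41 CPM (2.61 to 5.42) in the ONH and 10.4 CPM (7.70 to 13.7) in the ONP at 30 days, and Gria4 a median of 5.84 CPM (4.57 to 13.2) and 19.5 CPM (14.5 to 21.8). For neither gene did the groups overlap, and the log2FC was -1.59 ± 0.20 for Gria3 and -1.43 ± 0.24 for Gria4 (adjusted p = 2.06e-05 and 0.00025). At 7 days Gria4 was at 3.99, 3.83, 3.99 and 7.68 CPM in the ONH and at 25.9, 28.5, 24.4 and 25 CPM in the ONP. This gap, a log2FC of -2.40 ± 0.29 (adjusted p = 0.000617), was the larger of the 2 days for Gria4, but the difference between days was not called (interaction log2FC -0.99 ± 0.37, adjusted p = 0.258). Gria3 had a log2FC of -1.24 ± 0.28 at 7 days (adjusted p = 0.0161), which missed the threshold without either of 2 ONP libraries (0.0519 and 0.0573).

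By level per length, Gria1 made up 98.3% ± 1.05 of the AMPA subunit mRNA in the ONH and 85.9% ± 4.63 in the ONP at 30 days (SD, n = 7). At 7 days the shares were 98.1% ± 0.561 and 88.4% ± 1.97 (n = 4). Gria2 made up 0.304% ± 0.211 in the ONH and 2.80% ± 0.626 in the ONP at 30 days, and Gria4 was the larger of the minor parts, with 1.09% ± 0.737 and 8.26% ± 2.96. The summed AMPA level was 116 ± 33.4 CPM per kb in the ONH and 40.1 ± 11 in the ONP at 30 days.

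**Figure D2:**
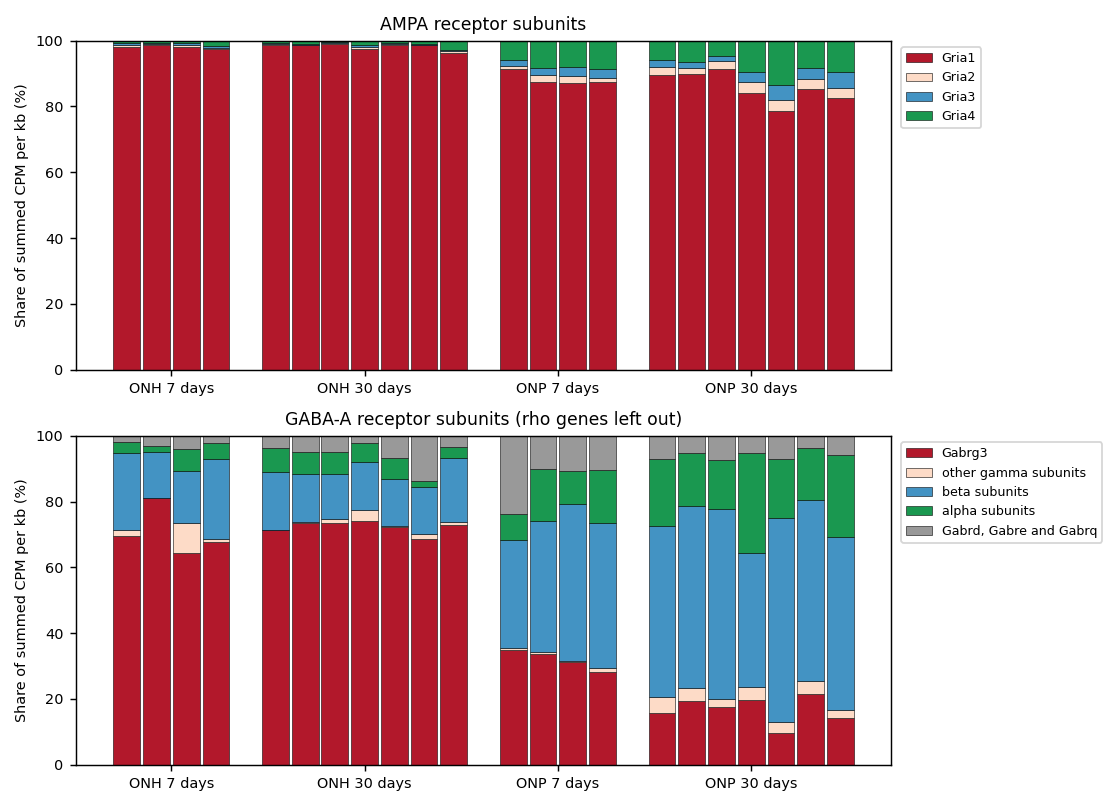
Each bar is 1 library, and the y axis gives each subunit's share (%) of the summed CPM per kb of the AMPA genes (top) or of the GABA-A genes without the rho genes (bottom), in the 4 groups. Gria1 fills almost the whole AMPA bar in the ONH and 78.6% to 91.5% of it in the ONP, and Gabrg3 fills 64.3% to 81.0% of the GABA-A bar in the ONH and 9.63% to 34.9% of it in the ONP.

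Kainate receptors combine the low-affinity subunits GluK1 to GluK3 with the high-affinity GluK4 and GluK5. All 5 genes were tested, and at 30 days 3 were called lower in the ONH and 0 higher. Grik2 was at 1.08 to 7.45 CPM in the ONH (median 2.62) and at 10.9 to 24.3 CPM in the ONP (median 17.4). Its groups did not overlap, and the log2FC was -2.40 ± 0.38 (adjusted p = 0.000151). Grik1 also had separate groups at 30 days, 0.674 to 6.63 CPM (median 3.72) against 6.64 to 24.7 CPM (median 12.2), although the nearest libraries lay next to each other, and its log2FC was -1.92 ± 0.42 (adjusted p = 0.00181). At 7 days Grik1 was at 15.7, 2.42, 6.10 and 21.0 CPM in the ONH and at 9.93, 7.51, 12.8 and 10.9 CPM in the ONP. The ONH libraries lay on both sides of the ONP at that day. Grik4 was at 6.98 to 16.8 CPM in the ONH (median 15.0) and at 16.1 to 22.2 CPM in the ONP (median 20.4) at 30 days. It had a log2FC of -0.59 ± 0.21 at 30 days (adjusted p = 0.0306), with groups that overlapped at the edge, and lost its call in a fit of all 4 groups together and without ONP replicate 1, 2 or 6. Grik3 and Grik5 had log2FC of -0.19 ± 0.21 and -0.26 ± 0.29 and were not called.

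Most NMDA receptor genes were near the limit of detection. These receptors require GluN1, the product of Grin1, which was at 0 to 2.22 CPM at 30 days. The exons of Grin1 overlap those of the antisense gene Grin1os over 13.5% of their length, and reads from the 2 cannot be told apart there. The NMDA gene with the most mRNA was Grin3a, whose subunit binds glycine rather than glutamate and lowers calcium entry. Grin3a was at 1.80 to 5.61 CPM in the ONH at 30 days (median 3.70) and at 12.7 to 28.3 CPM in the ONP (median 22.1). All 7 ONP libraries were above all ONH libraries, and the log2FC of -2.55 ± 0.26 (adjusted p = 3.52e-06) had the smallest adjusted p of the genes lower in the ONH. At 7 days Grin3a was at 4.58, 0.389, 5.30 and 3.36 CPM in the ONH and at 9.44, 14.4, 16.5 and 10.2 CPM in the ONP. The groups were again separate, and the log2FC of -1.88 ± 0.62 had an adjusted p of 0.0714. Grin3a made up 85.2% ± 3.97 of the NMDA mRNA per length in the ONP and 64.4% ± 14.9 in the ONH at 30 days (SD, n = 7).

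The delta receptor gene Grid1 encodes a glutamate receptor relative that binds glycine or D-serine and connects synapses through cerebellins. Grid1 was at 0 to 1.24 CPM in the ONH (median 0.690) and at 1.02 to 3.24 CPM in the ONP (median 1.81) at 30 days. The groups overlapped, and its log2FC of -1.83 ± 0.62 (adjusted p = 0.0269) missed the threshold without ONP replicate 7 (0.0506). Grid1 reached the level of the filter in 4 ONH and in all 7 ONP libraries, so its passing rested mostly on the ONP.

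Among the metabotropic receptors, Grm3 dominated in both regions. Its product mGluR3 lowers cyclic AMP through Gi proteins and is the main metabotropic glutamate receptor of adult astrocytes. Grm3 (chr5:9485541-9725170, minus strand) was at 10.2 to 25.4 CPM in the ONH at 30 days (median 11.4) and at 45 to 106 CPM in the ONP (median 73.9). At 7 days the ONH libraries held 19.6, 11.7, 10.2 and 25.3 CPM and the ONP libraries 92.7, 103, 102 and 106 CPM. The lowest ONP library of either day was above the highest ONH library, and the log2FC was -2.17 ± 0.26 (adjusted p = 1.4e-05) at 30 days and -2.58 ± 0.29 (adjusted p = 0.000368) at 7 days. Grm5, the receptor that raises calcium in young astrocytes, was at 0.644 to 1.89 CPM in the ONH (median 1.55) and 1.90 to 8.64 CPM in the ONP (median 3.54) at 30 days. The groups touched without overlap, and the log2FC was -1.80 ± 0.38 (adjusted p = 0.00149). Of the group III receptors only Grm7 was tested at 30 days, with a log2FC of 0.22 ± 0.67 that was not called.

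GABA-A receptors usually join alpha, beta and gamma subunits, and the gamma subunit shapes benzodiazepine binding and clustering. Of the 2 gamma genes tested at 30 days, Gabrg3 was called higher in the ONH, and Gabrg1 was tested only through the ONP. Gabrg3 (chr7:56716465-57387188, minus strand) was at 106 to 179.7 CPM in the ONH (median 147) and at 8.76 to 29.3 CPM in the ONP (median 23.5). At 7 days the ONH held 139, 190.2, 86.9 and 121 CPM and the ONP 43.7, 41.7, 32.5 and 25.2 CPM. No ONP library reached the lowest ONH library, and the log2FC was 2.76 ± 0.24 at 30 days (adjusted p = 7.48e-07, the smallest of all receptor genes) and 1.93 ± 0.27 at 7 days (adjusted p = 0.00124).

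Gabrg1, the gamma gene known from glia, was at 0 to 0.429 CPM in the ONH at 30 days (median 0.240) and at 1.56 to 4.55 CPM in the ONP (median 2.82). The ONH libraries held 0 to 8 counts. None of the 7 reached the level of the filter on low counts (0.459 CPM), so Gabrg1 was tested only through the ONP, where it is high, and a difference was built into that choice. The fitted log2FC of -3.45 ± 0.50 (adjusted p = 7.28e-05) therefore stands as a description. It did not pass the filter at 7 days, where 3 of 4 ONH libraries were listed at 0. Gabrb1 was at 9.86 to 27.6 CPM in the ONH (median 15.2) and at 22.5 to 72.7 CPM in the ONP (median 45.7) at 30 days, with overlap, and had a log2FC of -1.52 ± 0.28 (adjusted p = 0.000507). Gabra3 was at 0.216 to 3.46 CPM in the ONH (median 0.853) and at 1.67 to 6.97 CPM in the ONP (median 2.45) at 30 days. The groups overlapped, and it had a log2FC of -1.51 ± 0.51 (adjusted p = 0.0269), which was lost without ONH replicate 3 or 4, without ONP replicate 4 or 7, and in the fit of all 4 groups.

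By level per length, Gabrg3 made up 72.4% ± 1.85 of the GABA-A mRNA in the ONH and 16.8% ± 4.06 in the ONP at 30 days (SD, n = 7). Beta subunit genes held 15.6% ± 2.09 in the ONH and 53.7% ± 6.58 in the ONP, and alpha subunit genes 5.42% ± 2.04 and 20.1% ± 5.65. At 7 days the Gabrg3 share was 70.6% ± 7.26 in the ONH and 32.0% ± 3 in the ONP (n = 4). Gabbr1, which encodes the GABA-binding subunit of the GABA-B receptor, was at 8.90 to 19.8 CPM in the ONH and 13.3 to 22.5 CPM in the ONP at 30 days. Its log2FC of -0.43 ± 0.19 was not called (adjusted p = 0.0779), nor was that of Gabbr2, its signalling partner (-1.30 ± 0.74, adjusted p = 0.174).

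**Figure D3:**
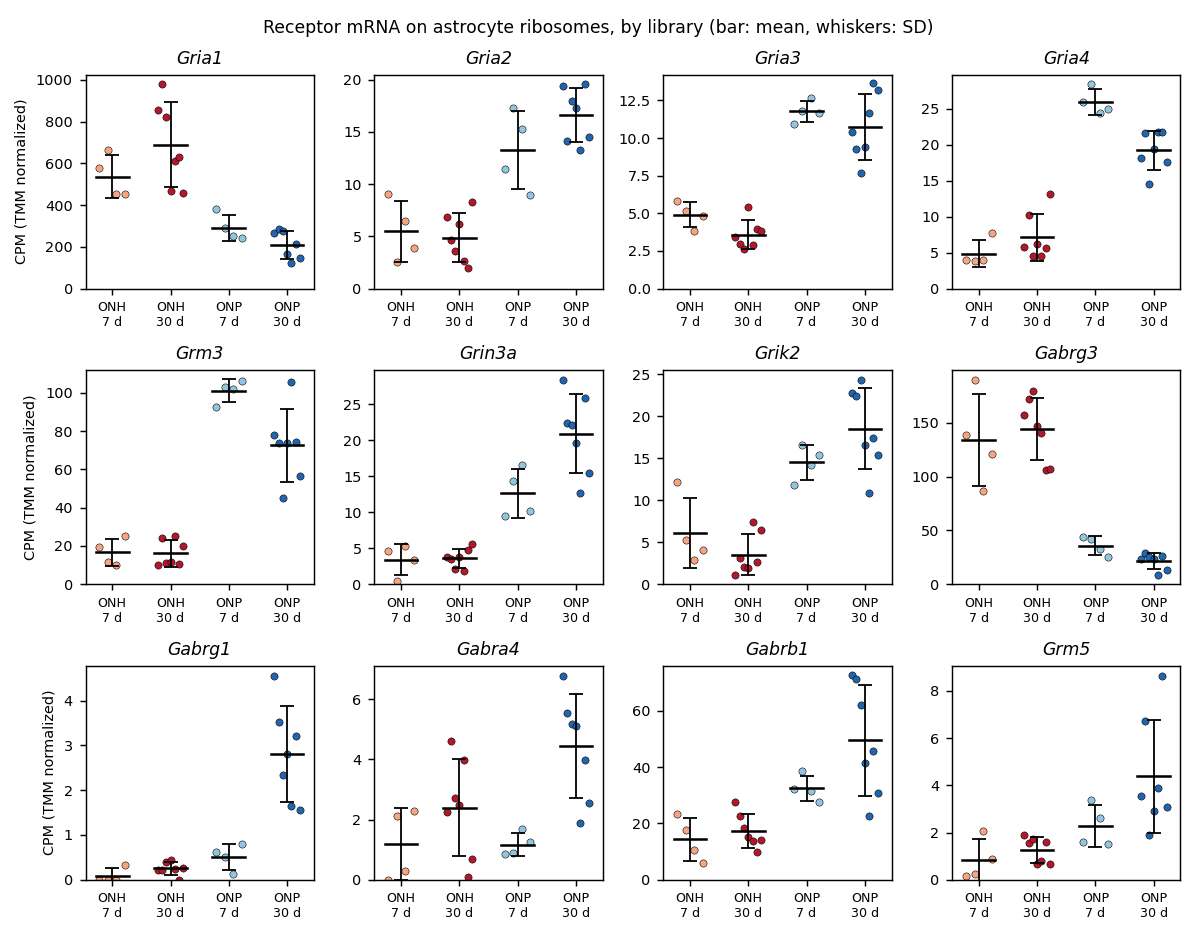
CPM of 12 receptor genes (y axes, each from 0) in every library of the 4 groups, with the group mean as a line and the SD as whiskers cut at 0, and with points spread sideways only to be seen. ONH points lie above ONP points for Gria1 and Gabrg3 and below them for Grm3, Gria3, Gria4 and Grin3a, and Gabrg1 and Gabra4 points of the ONP at 30 days lie above those at 7 days.

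Markers of some other cells moved with these differences. Of all genes, 21.8% were called higher and 20% lower in the ONH at 30 days, and 6.34% and 6.81% at 7 days. Of the 8 precursor markers, 6 were called lower in the ONH at 30 days and 4 at 7 days, and of the 8 oligodendrocyte markers 7 and 8, beside the receptor genes lower in the ONH. Of the photoreceptor, pigment cell and Müller glia markers, 8 of 8, 6 of 6 and 3 of 4 were called higher in the ONH at 30 days and 7, 6 and 3 at 7 days, beside Gria1 and Gabrg3. Of 8 microglia, 6 fibroblast and 8 endothelial and mural markers, 0, 1 and 2 were called higher and 1, 0 and 1 lower at 30 days. Among the markers tested of retinal ganglion cells and retinal interneurons, 2 of 5 and 1 of 3 were higher then, and 1 and 2 lower. The part of any of these cells in the results was not tested. Without the 6 libraries with the highest sums of photoreceptor, pituitary or microglia markers, chosen after these sums were seen, Gria1 had a log2FC of 1.67 ± 0.18 and Gabrg3 of 2.55 ± 0.16 at 30 days. Grm3 was then at -2.11 ± 0.30, and 13 of the 16 calls remained, with Gabra3 and Grik4 among those lost. In that fit 16 of 29 receptor genes were called in all, against 33.4% of all genes. The 30 day libraries kept still held photoreceptor markers at 105 to 432 CPM in the ONH and at 2.57 to 7.48 CPM in the ONP. Precursor markers summed to 124 to 187 CPM in the ONH and to 498 to 682 CPM in the ONP. That fit therefore did not take these marker differences away.

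Between 7 and 30 days the question was whether receptor mRNA changed as the injury went on. In the ONH 28 receptor genes were tested and 0 were called by edgeR, as were 0% of all 15668 genes. An unadjusted p under 0.05 was found for 3, among them Grik1 and Gabbr2, against 13.9% of all genes. Gabbr2 reached the level of the filter in 5 libraries at 30 days and in 0 at 7 days. It was thus tested only through the 30 day group, where it is high, and a rise was built into that choice. DESeq2 and limma-voom called 0 of the receptor genes as well, while DESeq2 called 2.49% and limma-voom 0% of all genes. Grik1 had the smallest adjusted p (0.252), with a log2FC (30 over 7 days) of -1.67 ± 0.59. Gria1 and Gabrg3 had log2FC of 0.33 ± 0.23 and 0.08 ± 0.22 in the ONH.

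In the ONP 31 receptor genes were tested and 3 (9.68%) were called, below the 17% of all genes. Gabrg1 and Gabra4 rose, against 7.82% of all genes called higher, and Gria4 fell, against 9.21%. The 3 had groups that did not overlap, as did 6.2% of all genes with a rise and 5.79% with a fall. Gabrg1 was at 0.613, 0.509, 0.123 and 0.787 CPM at 7 days and at 1.56 to 4.55 CPM at 30 days (median 2.82). All 30 day libraries were above all 7 day libraries, and the log2FC was 2.43 ± 0.50 (adjusted p = 0.00781). These 30 day libraries are also the ones that Gabrg1 was compared with between regions.

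Gabra4, whose alpha4 subunit is found in extrasynaptic receptors, was at 0.858, 0.891, 1.68 and 1.24 CPM at 7 days and at 1.90 to 6.78 CPM at 30 days (median 5.12). The groups did not overlap, and the log2FC was 1.88 ± 0.39 (adjusted p = 0.00806). Gria4 was at 25.9, 28.5, 24.4 and 25 CPM at 7 days and at 14.5 to 21.8 CPM at 30 days (median 19.5). It too had separate groups and a log2FC of -0.46 ± 0.13 (adjusted p = 0.0289).

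All 3 calls were lost in the fit of all 4 groups together (adjusted p = 0.0796 for Gabrg1, 0.158 for Gabra4 and 0.332 for Gria4), and that of Gria4 also with scaling by library size only (0.0736), with a filter of only 1 count in all (0.0733) and without any 1 of 4 ONP libraries. Under that scaling the median of all genes moved by 0.11. In the same comparison 6 of 8 oligodendrocyte markers were called lower at 30 days, with summed levels of 80846.5 to 105867 CPM at 7 days and 25300.5 to 83040 CPM at 30 days, and 1 of 8 precursor markers higher. Of the 8 endothelial and mural markers, 4 were called lower, with summed levels of 147 to 168 CPM at 7 days and 52.7 to 117 CPM at 30 days, and of the 4 Müller glia markers 1 was. Their part was not tested.

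Gabrg1 and Gabra4 lie in the same gene cluster, and most GABA-A genes lie in such clusters. On chromosome 5 the order is Gabrg1 (start 70751047), Gabra2 (70957597), Gabra4 (71569749) and Gabrb1 (71658113), and the last 2 are transcribed away from each other and share 46 bp of exon on opposite strands. In the ONP the log2FC of 30 over 7 days was above 0 for all 4 genes of this cluster. It was 2.43, 1.05 ± 0.78, 1.88 and 0.58 ± 0.29 in that order, and Gabra2 and Gabrb1 were not called. It was above 0 for 20 of the 31 receptor genes tested and for 7641 of all 15491 genes, so a shared sign says little. The 20 include Gabra5 and an NMDA receptor gene that each reached the level of the filter in 4 libraries at 30 days and in 0 at 7 days. They were tested only through the 30 day group, where they are high, and a rise was built into that choice. Between regions at 30 days their log2FC were -3.45, -0.25 ± 0.69, -0.88 ± 0.53 and -1.52. The value of Gabrg1 is a description only, as stated above. Gabra2 was at 5.12 CPM in ONH replicate 3 and at 0.108 to 0.805 CPM in the other ONH libraries. In the ONP it was at 0.682 to 2.57 CPM, and it was called without ONH replicate 3. In the chromosome 7 cluster Gabrg3 was called higher in the ONH, while its neighbour Gabra5 had a log2FC of -1.18 ± 0.78 and was not called.

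**Figure D4:**
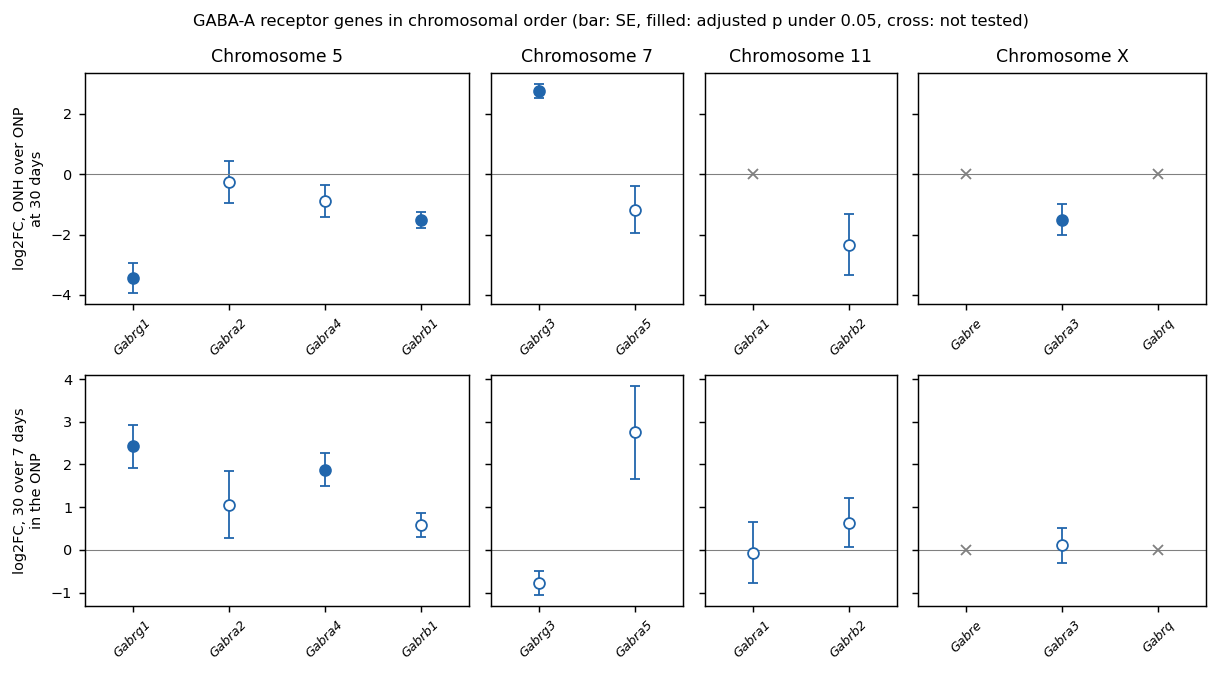
The GABA-A genes reported here are shown in chromosomal order within 4 clusters (x axis, not to scale), with the log2 fold change of ONH over ONP at 30 days (top) and of 30 over 7 days in the ONP (bottom), bars as standard errors, filled symbols for an adjusted p under 0.05 and crosses at 0 for genes not tested. Gabrg1 and Gabra4 of chromosome 5 are the filled symbols of the lower row, and Gabrg3 of chromosome 7 is the only filled symbol above 0 in the upper row.

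The bases upstream of the start are shown for the gene pair that rose in the ONP and for Gabrg3, the GABA-A gene called higher in the ONH. Those of Gabrb1 and Gabra3, called lower in the ONH at 30 days, are not shown. RefSeq (GRCm38.p6) gave a start for 30 of the 45 genes, and the stretches are chr5:70842618-70842867 for Gabrg1, chr5:71658364-71658558 for Gabra4 and chr7:57387216-57387465 for Gabrg3, all on the minus strand. They run to the base before the start, except that the last 55 bases of Gabra4 are left out because they lie in an untranslated exon of Gabrb1. Capitals mark matches of the GC box GGGCGG on either strand.
Gabrg1: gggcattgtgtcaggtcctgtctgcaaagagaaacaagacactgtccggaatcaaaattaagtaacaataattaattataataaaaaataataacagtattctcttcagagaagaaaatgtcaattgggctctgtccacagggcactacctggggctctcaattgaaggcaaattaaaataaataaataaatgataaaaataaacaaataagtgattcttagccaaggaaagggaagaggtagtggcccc
Gabra4: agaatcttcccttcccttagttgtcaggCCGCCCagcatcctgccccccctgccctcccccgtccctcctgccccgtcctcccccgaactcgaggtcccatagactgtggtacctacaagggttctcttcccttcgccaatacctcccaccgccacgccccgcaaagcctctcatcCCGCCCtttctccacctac
Gabrg3: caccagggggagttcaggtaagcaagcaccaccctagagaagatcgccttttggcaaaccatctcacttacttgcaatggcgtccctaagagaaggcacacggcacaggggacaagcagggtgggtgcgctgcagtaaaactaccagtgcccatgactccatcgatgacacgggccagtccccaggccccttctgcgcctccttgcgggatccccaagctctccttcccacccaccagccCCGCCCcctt
In the 250 bases before the start, Gabrg1 held 1 CpG, Gabra4 12 and Gabrg3 9, against a median of 6 over 32851 promoters. The GC box was found in 32.7% of these promoters and matched Gabra4 at 2 places, Gabrg3 at 1 and Gabrg1 at 0. None of the 3 held the TATA box TATAAA, the E-box CACGTG, the AP-1 site TGANTCA or the palindromic NFI site, searched on both strands and found in 12.4%, 6.02%, 6.75% and 0.0365% of promoters. The base composition of the pair that rose differed, with 35.6% G and C for Gabrg1 and 61.2% for Gabra4.

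Whether the regions differed in their change over time was tested as an interaction over all 4 groups. Of 33 receptor genes, 0 were called by edgeR, against 0.543% of all 16748 genes. An unadjusted p under 0.05 was found for 8, among them Gabrd, Grik1, Gria4, Gria1 and Gabrg3, against 12.6% of all genes. Limma-voom called 0 (of all genes 0.328%). DESeq2 called Gabrd (adjusted p = 0.02), 1 of 36 receptor genes, and 2.28% of all genes. Gabrd, which encodes the delta subunit of tonic GABA-A receptors, was at 0.916, 1.76, 1.03 and 0.841 CPM in the ONH and at 7.17, 2.99, 2.67 and 2.21 CPM in the ONP at 7 days. At 30 days it was at 0.966 to 5.11 CPM (median 2.80) in the ONH and at 1.02 to 2.51 CPM (median 1.43) in the ONP. All ONP libraries were thus above all ONH libraries at 7 days only, where the log2FC of ONH over ONP was not called (-1.69 ± 0.57, adjusted p = 0.0806). The 7.17 CPM came from 1 ONP library that stood apart from the others. The interaction log2FC of Gabrd (change in the ONP minus change in the ONH) was -2.35 ± 0.65 (adjusted p = 0.0981). Gria1 and Gabrg3 had interaction log2FC of -0.83 ± 0.34 and -0.85 ± 0.37 (adjusted p = 0.307 and 0.343).

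Genes whose products build, place or serve these receptors were followed in 6 lists. At 30 days 21.8% of all genes were called higher in the ONH and 20% lower, and the counts of each list stand beside these shares. Of 11 AMPA auxiliary subunit genes tested at 30 days, 3 were called higher in the ONH and 4 lower. Cnih3, a cornichon that slows AMPA channel closing, was higher (log2FC 1.61 ± 0.29), as Gria1 was. Lower were Shisa9 (-1.75 ± 0.27), Shisa8 (-1.22 ± 0.27) and Cacng5 (-1.19 ± 0.29), which encode proteins that ride on AMPA receptors. Of 7 tested genes for auxiliary and ligand proteins of kainate, delta and NMDA receptors, 3 were lower and 0 higher. They were Neto2 (-2.48 ± 0.22), an auxiliary subunit of kainate receptors such as those with GluK2, C1ql2 (-1.70 ± 0.24), a secreted kainate receptor ligand, and Srr (-0.27 ± 0.10), which makes D-serine.

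Of 16 glutamate receptor scaffold genes, 3 were higher and 2 lower, among them Shank1 (2.23 ± 0.41), Dlgap1 (-1.50 ± 0.21), Dlg2 (-0.85 ± 0.31) and Dlg3 (0.51 ± 0.13). Of 14 genes for anchors and auxiliary subunits of GABA receptors, 2 were higher and 4 lower. Nlgn2, the neuroligin of inhibitory synapses, was higher (1.28 ± 0.24), and Shisa7 (-1.42 ± 0.49), Lhfpl4 (-1.36 ± 0.17) and Clptm1 (-1.10 ± 0.23), which bind GABA-A receptors, were lower. Of 16 genes of metabotropic receptor signalling, 3 were higher and 7 lower. The largest differences were in the adenylyl cyclase gene Adcy8 (-3.70 ± 0.55), the Gi gene Gnai1 (-1.74 ± 0.26), the phospholipase gene Plcb4 (1.72 ± 0.27) and the IP3 receptor gene Itpr3 (1.41 ± 0.39).

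Of 16 genes for uptake and metabolism of glutamate and GABA, 7 were lower in the ONH at 30 days and 0 higher, while 41.8% of all genes were called in either direction. Maob (-2.04 ± 0.29), which takes part in astrocytic GABA synthesis, the glutamine carrier Slc38a3 (-1.53 ± 0.22) and the GABA transaminase Abat (-1.01 ± 0.26) were among the lower ones. Slc1a2, the glutamate transporter GLT-1, had a log2FC of -0.79 ± 0.26 (adjusted p = 0.0246). Slc1a3 (GLAST, 0.66 ± 0.26), glutamine synthetase Glul (0.45 ± 0.22) and Slc6a11 (GAT3, -0.19 ± 0.35) were not called.

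At 7 days 6.34% of all genes were called higher and 6.81% lower, and the counts of the partner lists stand beside these shares. Of 16 uptake genes 2 were lower in the ONH, among them Slc1a2 (-0.70 ± 0.19), and 0 higher. In metabotropic signalling 2 of 16 were higher and 3 lower, among them Gnai1 (-1.74 ± 0.26), Plcb4 (1.57 ± 0.39), Ncdn (-1.47 ± 0.21) and Gnao1 (-1.41 ± 0.16). In each of the other 4 lists 1 gene was lower and 0 higher, of 10, 5, 15 and 12 tested. In that order they were Shisa8 (-1.11 ± 0.32), C1ql2 (-1.46 ± 0.37), Homer1 (-1.54 ± 0.44) and gephyrin Gphn (-1.36 ± 0.20), the anchor of GABA-A receptors.

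Over time, 0 partner genes were called in the ONH, as were 0% of all genes. In the ONP, where 7.82% of all genes rose and 9.21% fell, Homer2 (1.85 ± 0.27), a scaffold of group I metabotropic receptors, Maob (1.69 ± 0.26), Rgs4 (1.06 ± 0.20), Dlgap1 (0.97 ± 0.21), Slc38a3 (0.90 ± 0.22) and Lhfpl4 (0.82 ± 0.11) rose from 7 to 30 days. Itpr2 (-0.91 ± 0.12), Glul (-0.83 ± 0.24), Trak2 (-0.62 ± 0.16), Dlg1 (-0.60 ± 0.12) and Gnao1 (-0.58 ± 0.12) fell. The interaction was called for Homer2 (1.73 ± 0.38, adjusted p = 0.0388) and Maob (1.85 ± 0.43, adjusted p = 0.0495), both with the larger change in the ONP.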

How the data were processed

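mRNA bound to HA-tagged ribosomes was sequenced from 22 libraries of ONH and ONP (7 per region at 30 days, 4 at 7 days). The authors made the libraries with poly(A) capture and a kit for very small amounts of RNA, all at the same time, aligned reads to mm10 with STAR 2.6.1d and quantified transcripts with Salmon 0.14.2. The authors deposited expected counts per gene, whole numbers without normalization, which held no fractions. Their log2 values from DESeq2 1.34.0 were not used. The strand used in counting is not given in the sources used here.

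The quasi-likelihood test of edgeR 4.0.16 (R 4.3.3) was fitted to the 2 groups of each comparison, or to all 4 for the interaction, on every gene that filterByExpr kept, with TMM factors. P-values were adjusted by Benjamini-Hochberg across those genes, and values under 0.05 were called, with no log2FC cutoff. All p-values not named otherwise are from edgeR, and the SE is the log2FC over the root of F. CPM used TMM over all 22 libraries, and lengths are the union of exons in GENCODE M21. The script was tested on simulated data. The 7 day columns carry no number of a labelled replicate, so they were assigned to a region and day and never paired.

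The receptor genes and all lists were chosen with earlier results of these data known. Named were receptor genes called in any comparison, the 10 highest per length in each region, those never over 3 counts, the smallest adjusted p where none was called, marker lists as counts and ranges, and at most 4 called partner genes per list and comparison by largest log2FC, plus Slc1a2, Slc1a3, Glul and Slc6a11. Some genes that this rule names are not reported here, though counts over lists include them. Other genes of the GABA-A clusters, Grm7, Gabbr2, Grik3, Grin1, Grin2a, Grin2b, Grm6, the 10 genes detected in fewer than 6 libraries and those with an unadjusted p under 0.05 where none was called were added with their values in view. Tried as alternatives were DESeq2 1.42.0, limma-voom with quality weights (limma 3.58.1), RLE, library size only, a filter of only 1 count in all, a stricter one of 10 counts per library, all 4 groups in a single fit, each library left out, the replicate block, and the longest transcript as length. Leaving out 6 libraries together was added later.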

Additional observations from a re-analysis of the deposited data

Results flagged for a closer look

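A check of 20 receptor genes reported here, which left out Gabra2, covered 80 combinations of a gene and a group. In 5 of them, 1 library stood apart from the others by a gap that was most of the group's range. By chance about 1 in 20 groups would do so. In the ONH at 30 days, Gabra3 was at 3.46 CPM in replicate 1 and the next library was at 1.28 CPM. In the ONH at 7 days, the library numbered 6 in the table was highest for Gria4 (7.68 CPM, next 3.99) and for Gabrg1 (0.336 CPM, with the other 3 listed at 0), and it held the highest photoreceptor marker sum. In the ONP at 7 days, the library numbered 1 was highest for Gabrd (7.17 CPM, next 2.99) and lowest for Gabbr1 (10.2 CPM, next 18.5).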

How the results depend on the processing

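The number of receptor genes called for ONH vs ONP at 30 days stayed between 13 and 20 under every alternative. The number tested and the share of all genes called moved as well. With the stricter filter 13 of 18 were called (of all genes 46.8%), and with the filter of 1 count 20 of 45 (22.1%). With a library left out 14 to 18 of 29 were called, against 37% to 41.9% of all genes. The 30 day libraries of the regions share only a replicate number. The deviations of same-numbered libraries correlated at 0.0767 to 0.471, over 0.1 in 5 of 7 pairs, and the own number was the best match in 3 of 7. With the replicate block 18 of 29 receptor genes were called (of all genes 44.4%), the 16 and Gabrb2 and Gabrr2. At 7 days, where 6 were called, DESeq2 called 13 (of all genes 19%) and limma-voom 10 (14%). The fit of all 4 groups called 13 (22.6%) and the fit without 6 libraries 10 (15.3%), and leaving out a library gave 5 to 9 (7.26% to 15.8%). All 6 calls were among those of each of these fits and of the other alternatives, except without the ONP library numbered 2, 5 or 6. For ONP 30 vs 7 days, with 3 calls, of 31 tested and 17% of all genes, DESeq2 called 9 of 35 (of all genes 20.2%), limma-voom 7 of 31 (20.5%), the fit without 6 libraries 9 of 31 (24.3%) and the fit of all 4 groups 0 of 33 (7.1%). Leaving out a library gave 2 to 8 there, with 5 without ONP replicate 3 and 8 without ONP replicate 5 of 30 days. Of all genes, these fits called 9.12% to 20.9%. For ONH 30 vs 7 days the count was 0 throughout. In the interaction it was 1 of 36 with DESeq2 (Gabrd), where 2.28% of all genes were called. Without 6 libraries it was 1 of 34 (Gabra3), where 2.44% of all genes were called, and with a library left out it was 0 to 0. The causes were not tested. The log2FC of Gabrg3 for ONH 30 vs 7 days, which was not called, turned to -0.00401 without ONH replicate 3 of 30 days, -0.0812 without the ONH library numbered 5 of 7 days, and -0.16 without 6 libraries, and reached 0.29 without the ONH library numbered 3 of 7 days. Scaling by library size moved the median of all genes by 0.11 in both ONH vs ONP at 7 days and ONP 30 vs 7 days and by 0.15 in the interaction. With the longest transcript as length, Gria1 kept a share of 97.5% (ONH) and 86.1% (ONP) of the AMPA mRNA at 7 days, and the level per kb rose for Gabbr1 (2.37 in the ONH, 3.33 in the ONP) and Grik1 (3.39 in the ONP), which changes their rank. No paired fit was made at 7 days or for the interaction, since these columns carry no replicate number of the labels. Counts near 3 limit most NMDA, rho and group III genes.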
